A study of Homo sapiens with 54 samples.

Results

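The genes described here encode aminoacyl-tRNA synthetases, the enzymes that join each amino acid to its transfer RNA (tRNA). They were 35 of the 20037 protein-coding genes in RefSeq GRCh38, taken by symbol: 19 genes of cytosolic enzymes and 16 genes of mitochondrial enzymes, whose symbols end in 2. For each gene, regions bound in chromatin were counted within 1 kb of either end of its RefSeq span and, separately, inside the span. The data were chromatin immunoprecipitation followed by sequencing (ChIP-seq) of T47D, an established human breast cancer line that expresses the estrogen receptor and the progesterone receptor (PR), with no change of genotype named in the labels. Cells received ethanol vehicle or the synthetic progestin R5020 for 1 h, at a dose not given in the sources used here. The 8 antibodies were directed against PR, the polymerase III repressor Maf1, its initiation factor Brf1, 4 subunits of that polymerase (POLR3A, POLR3C and the alternative subunits POLR3G and POLR3GL) and histone H3 acetylated at lysine 27 (H3K27Ac), a mark of active promoters and enhancers. The labels list 18 groups of 3 libraries, 48 from ChIP and 6 from input, and the ChIP groups are represented by 16 peak lists, 1 per antibody and treatment. PR, Maf1 and polymerase III at tRNA genes are the subject of the series, and the synthetase genes are the protein-coding side of the tRNA supply.

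A synthetase typically recognises a single amino acid and its tRNAs (EPRS1 joins the glutamyl and prolyl enzymes in a single protein), and the charged tRNA is then taken to the ribosome by an elongation factor. Most cells use separate enzymes in the cytosol and in mitochondria, all encoded in the nucleus, and GARS1 and KARS1 serve both compartments from a single gene. In the cytosol, EPRS1, IARS1, KARS1, LARS1, MARS1, QARS1 and RARS1 belong to the multi-synthetase complex, held together by the scaffold proteins AIMP1, AIMP2 and EEF1E1. Genes of many cytosolic synthetases respond to amino acid shortage through the transcription factor ATF4, which binds the amino acid response element. All of them are transcribed by RNA polymerase II, whereas the tRNAs themselves are made by polymerase III.

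Each peak list stands for 3 libraries, so values come without a spread between replicates and no test of vehicle against R5020 was possible. The 95% intervals (Wilson for a share, Newcombe for a difference of shares) cover the counting of genes or regions only. The lists hold no read counts, and the depth is unknown. The PR lists held 6663 regions with vehicle and 173129 with R5020, and the Maf1 lists 3049 and 22683. The treatment tag reads ethanol for 4 libraries titled R5020, replicate 1 of POLR3G, of POLR3GL and of POLR3C and replicate 2 of POLR3C, and libraries were grouped by title. As a check of the cell line, H3K27Ac lay at an end of 8 of 8 T47D marker genes in the vehicle list and of 4 of 9 marker genes of other cells (CD3E, COL1A1, COL1A2 and CDH5). Of the members, 34 of 35 carried H3K27Ac at an end with vehicle (97.1%, 85.5 to 99.5), where the share of all protein-coding genes was 68.0%.

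The start regions of 30 members were in the RefSeq promoter table, which gives 250 bases before each start and 50 from it on. The amino acid response element, searched as TGATGNAA on both strands, was found in 8 of these 30 members (26.7%) and in 570 of 15842 protein-coding genes in the same windows (3.60%). It was present in 7 of 16 cytosolic members (43.8%, 23.1 to 66.8) and in 1 of 14 mitochondrial members (7.14%, 1.27 to 31.5). The 8 matches are shown because all but 1 are in cytosolic members. Most of them lie under regions described below, and all 30 members had H3K27Ac within 1 kb of a start in both treatments. Each line gives 30 bases 5′ to 3′ on the strand of the gene, from RefSeq GRCh38.p14, with the match in capitals.
AARS1, chr16:70289675-70289704, minus strand: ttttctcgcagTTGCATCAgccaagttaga
CARS1, chr11:3057407-3057436, minus strand: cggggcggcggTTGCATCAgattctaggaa
GARS1, chr7:30594834-30594863, plus strand: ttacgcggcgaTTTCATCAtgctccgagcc
IARS1, chr9:92293692-92293721, minus strand: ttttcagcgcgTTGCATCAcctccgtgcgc
MARS1, chr12:57488053-57488082, plus strand: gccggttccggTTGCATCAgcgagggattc
NARS1, chr18:57621804-57621833, minus strand: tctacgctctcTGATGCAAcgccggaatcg
TARS1, chr5:33440956-33440985, plus strand: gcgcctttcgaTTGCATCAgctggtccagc
YARS2, chr12:32756076-32756105, minus strand: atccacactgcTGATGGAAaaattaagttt

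The same 8 letters, TTGCATCA or their reverse complement TGATGCAA, were present in 6 of the 8 genes, and GARS1 and YARS2 carried variants that the open position of the pattern allows. With the start base counted as 0, the match ran from -4 to 3 at MARS1, the methionyl enzyme, and from -2 to 5 at CARS1, the cysteinyl enzyme. At TARS1, the threonyl enzyme, it ran from 2 to 9 after the second of 2 annotated starts. At YARS2, the mitochondrial tyrosyl enzyme, it began at -197. Regions of PR, Maf1, H3K27Ac and POLR3G lay over the GARS1 match in both treatments, whereas the AARS1 match was under a single region, of POLR3G with R5020. Other patterns were not above their background. The receptor hexamer AGAACA was in 4 of 30 members (13.3%, against 14.9% of all). The full palindromic receptor element (0.379% of all) and the B box of polymerase III genes (0.234% of all) were in 0 of 30. A count of 0 of 30 members cannot be told from shares this low. A match of letters is not a bound site.

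PR was found at an end of few synthetase genes with vehicle and of most of them with R5020. With vehicle, 8 of 35 members had a PR region at an end (22.9%, 12.1 to 39.0), against 13.3% of all protein-coding genes. With R5020, 31 of 35 had one (88.6%, 74.0 to 95.5), against 60.9% of all. By enzyme class, 17 of 19 cytosolic and 14 of 16 mitochondrial genes had PR with R5020, a difference of 1.97 percentage points whose interval includes 0 (-20.8 to 26.7). Gene by gene, 7 members had PR in both lists (13.1% of all genes did), 24 with R5020 alone (47.9% of all), 1 with vehicle alone (0.200% of all) and 3 in neither.

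**Figure D1:**
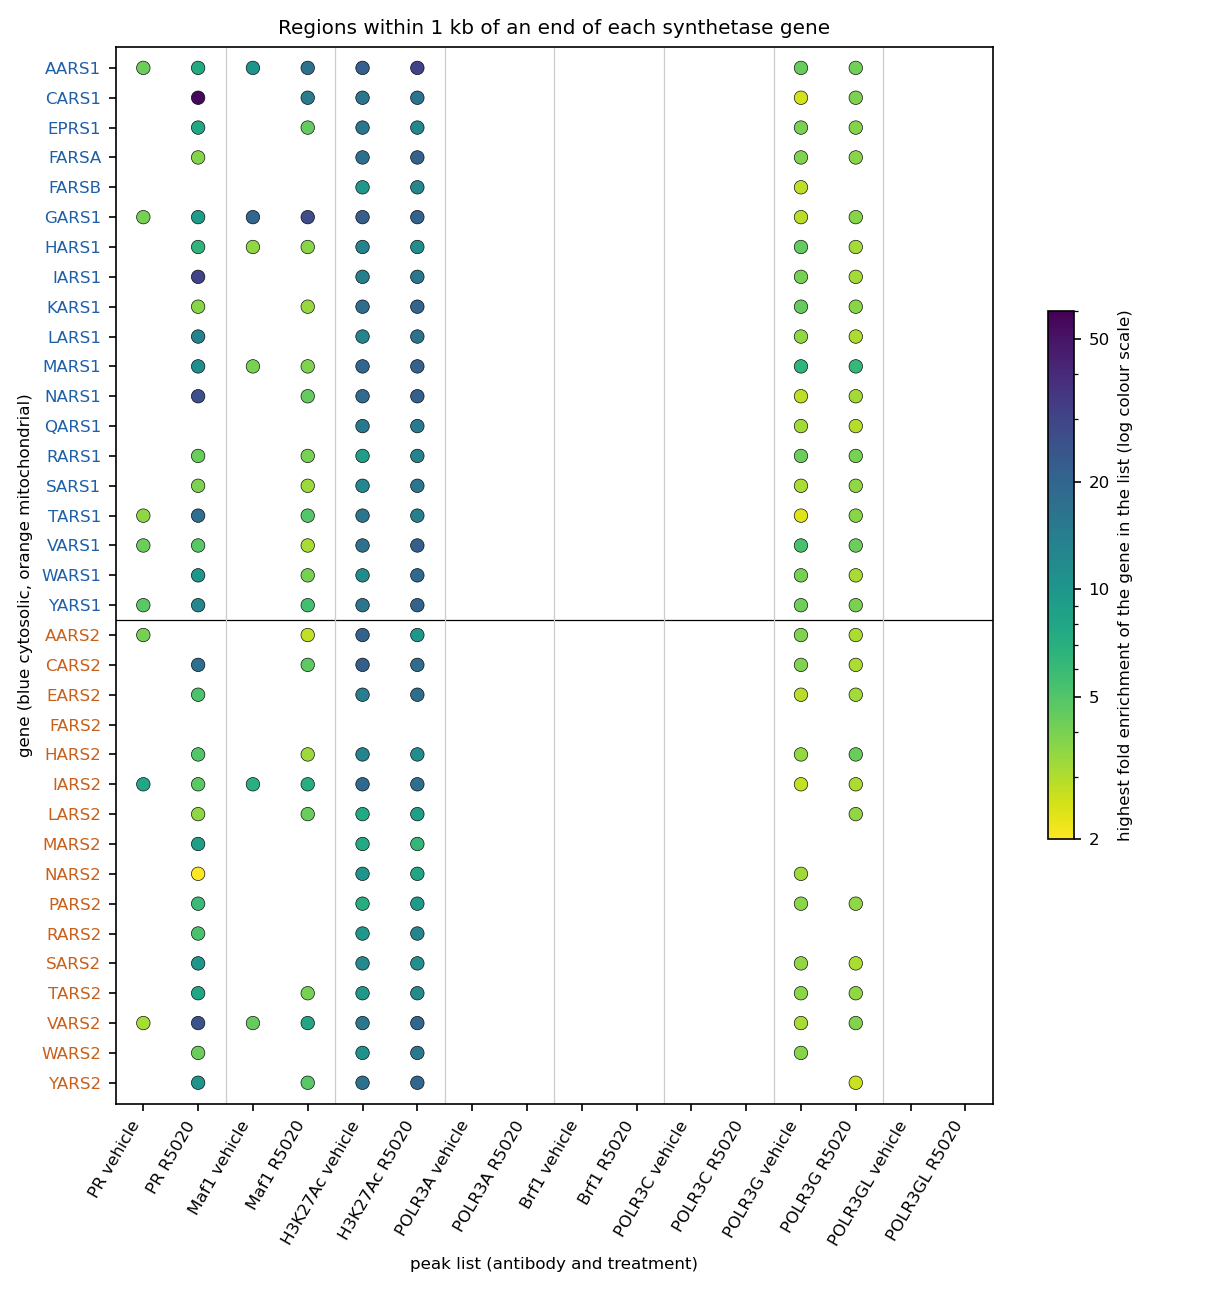
Members (vertical axis, cytosolic in blue above, mitochondrial in orange below) against the 16 peak lists (horizontal axis); a dot marks a region within 1 kb of a gene end and its colour, on a log scale, the highest fold there. Dots fill 8 places in the PR vehicle column and 31 in the PR R5020 column, and the columns of POLR3A, Brf1, POLR3C and POLR3GL are empty.

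The member share with R5020 was 27.7 points above that of all protein-coding genes (13.1 to 34.6). Set against the 13258 genes with H3K27Ac at an end in both treatments, the excess was 9.73 points (-4.42 to 15.5), with 91.2% of 34 acetylated members and 81.4% of acetylated genes. That interval includes 0. The count also rests on the length of the list: among the 6663 regions of highest q in the R5020 list, as many as the vehicle list holds, 1 member had a region at an end (CARS1), against 8 with vehicle. The member share was then 1.33 points below that of all genes (difference -1.33, interval -3.70 to 10.3), which was 4.19%.

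The 7 members with PR in both lists were the cytosolic AARS1, GARS1, TARS1, VARS1 and YARS1 and the mitochondrial IARS2 and VARS2. Fold below is the authors' fold enrichment of a region over background, a value that ranks regions within 1 list and is not compared between lists. The vehicle folds were low, 4.29 at AARS1 (the alanyl enzyme), 4.06 at GARS1 (glycyl), 3.55 at TARS1, 4.28 at VARS1 (valyl), 4.77 at YARS1 (tyrosyl) and 3.12 at VARS2, and the median over members was 4.18, against 3.73 over all coding genes with a region. IARS2, the mitochondrial isoleucyl enzyme, had the highest, 7.89, at chr1:220093858-220094465 over its start, at percentile 89.8 of that list. With R5020 the same start had a fold of 4.79, at percentile 37.1. AARS2, the mitochondrial alanyl enzyme, had PR with vehicle alone, with a fold of 4.07 at chr6:44313287-44313505. Of these 8 members, 4 had the vehicle region within 1 kb of an annotated start (AARS1, GARS1, IARS2, TARS1).

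The highest R5020 folds were at CARS1, IARS1, NARS1, VARS2, TARS1 and CARS2, and they did not lie at 1 kind of position. CARS1 had 55.7 at chr11:3000134-3001512, at percentile 99.9 of the list and with a -log10 q of 416. That region covers the far end of the gene, away from its starts, and overlaps no other gene span, and a weaker pair of folds, 7.08 and 5.23, lay at its start. IARS1, the isoleucyl enzyme, had 30.5 at chr9:92294379-92295154, whose summit lies at -1220 from the start, and 2 weaker regions, 5.23 and 3.51, nearer to it. NARS1, the asparaginyl enzyme, had 26.3 at chr18:57621340-57622364 with the summit at -167 and the start inside the region. VARS2, the mitochondrial valyl enzyme, had 25.1 at its end of higher coordinate, chr6:30926697-30927133. TARS1 had 17.9 at chr5:33440009-33441313, which covers both its starts. CARS2, the mitochondrial cysteinyl enzyme, also had 17.9, at chr13:110714131-110716417, where ING1 starts. The other 25 members with PR ranged from 1.96 at NARS2, the mitochondrial asparaginyl enzyme, to 13.5 at LARS1, the leucyl enzyme.

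Starts were examined in members with Maf1 or vehicle PR at an end. Members with 1 of the 5 highest R5020 PR folds, at an end or inside, were examined too. In 20 of them the most upstream annotated start lay inside an R5020 region of PR or Maf1. Promoter sequence is shown for the 5 of these 20 with the highest folds. The fold given is that of the region over the start, which need not cover all the bases printed. All lines run 5′ to 3′ up to the base before the start, from RefSeq GRCh38.p14, and capitals mark AGAACA or the amino acid response element where 1 is present. TARS1 is printed as far as the neighbouring TARS1-DT.
GARS1, chr7:30594485-30594734, plus strand, under Maf1 of fold 27.5: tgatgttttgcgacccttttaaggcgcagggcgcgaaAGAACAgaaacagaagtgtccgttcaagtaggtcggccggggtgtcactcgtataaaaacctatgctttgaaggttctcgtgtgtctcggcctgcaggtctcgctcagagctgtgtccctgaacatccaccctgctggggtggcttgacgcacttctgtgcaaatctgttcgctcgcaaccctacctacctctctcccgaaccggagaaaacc
NARS1, chr18:57621837-57622086, minus strand, under PR of fold 26.3: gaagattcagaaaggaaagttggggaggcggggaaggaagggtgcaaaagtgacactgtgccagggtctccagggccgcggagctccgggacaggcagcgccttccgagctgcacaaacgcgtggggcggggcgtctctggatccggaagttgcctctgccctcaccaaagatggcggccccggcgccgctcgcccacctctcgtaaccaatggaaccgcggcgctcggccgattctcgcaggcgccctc
TARS1, chr5:33440635-33440695, plus strand, under PR of fold 17.9: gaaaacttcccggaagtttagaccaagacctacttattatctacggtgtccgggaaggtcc
YARS2, chr12:32755898-32756147, minus strand, under PR of fold 10.5: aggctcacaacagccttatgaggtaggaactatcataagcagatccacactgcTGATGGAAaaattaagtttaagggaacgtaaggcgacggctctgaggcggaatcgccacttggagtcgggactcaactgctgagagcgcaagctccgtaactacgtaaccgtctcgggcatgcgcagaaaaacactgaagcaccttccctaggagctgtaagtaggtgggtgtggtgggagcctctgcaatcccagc
EPRS1, chr1:220046506-220046755, minus strand, under PR of fold 7.94: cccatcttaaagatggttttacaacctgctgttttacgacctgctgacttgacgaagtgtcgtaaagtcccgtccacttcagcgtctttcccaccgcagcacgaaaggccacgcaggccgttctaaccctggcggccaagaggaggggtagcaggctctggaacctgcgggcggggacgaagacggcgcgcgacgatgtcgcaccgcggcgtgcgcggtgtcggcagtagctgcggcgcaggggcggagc

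Of these 5 stretches, that of GARS1 held an AGAACA and that of YARS2 the response element, and NARS1, TARS1 and EPRS1 held neither before the start. The YARS2 match lay under H3K27Ac regions of both treatments and under no PR region. Over all 30 members with a start, the median GC content of the windows was 61.8%, against 62.3% over all genes.

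Most PR regions at member ends were at starts, a share that was not computed for all coding genes. With R5020, 55 distinct regions lay at member ends, and 38 of the 48 at members with an annotated start were within 1 kb of it (79.2%), with a median summit position of 12 bases after the start. A start had PR in 27 of 30 members (90.0%, 74.4 to 96.5), against 59.7% of all genes with a start in the table. These were 14 of 14 mitochondrial and 13 of 16 cytosolic members. FARSB (the beta subunit of the phenylalanyl enzyme), MARS1 and QARS1 (glutaminyl) had none there, although MARS1 had 3 regions at its far end, beside DDIT3 (a stress response factor), the highest with a fold of 11.3 at chr12:57514635-57515792. The median highest fold over members was 7.94, close to the 7.20 of all coding genes with a region, with 9.34 over cytosolic and 5.63 over mitochondrial members. Of the 55 regions, 15 were also within 1 kb of the start of another coding gene, among them WDR25 at WARS1, UBFD1 at EARS2, MRPS12 at SARS2 and S100PBP at YARS1, and these regions cannot be assigned to 1 gene.

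**Figure D2:**
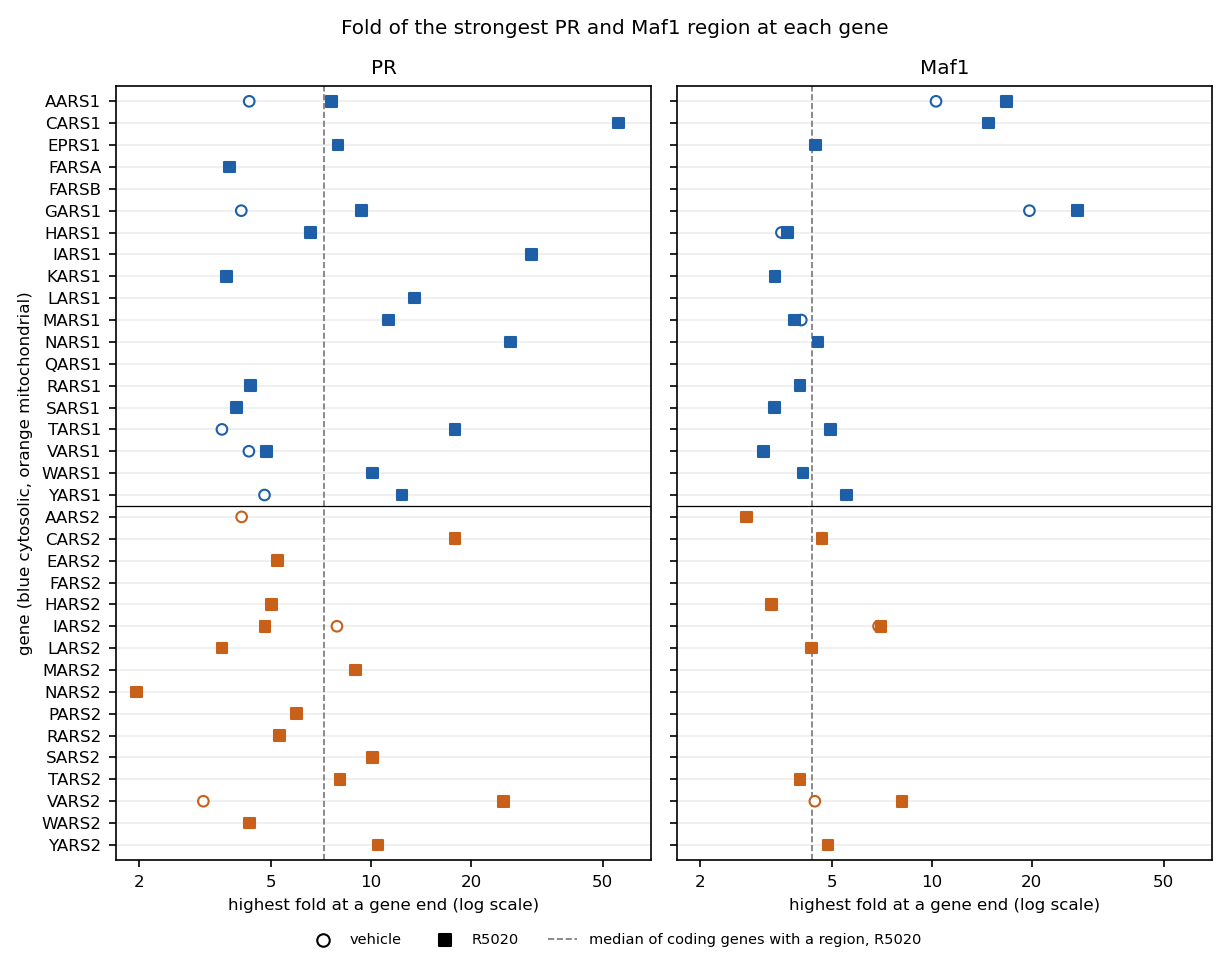
Highest fold of a PR region (left) and a Maf1 region (right) at an end of each member on a log axis, open circles for vehicle and filled squares for R5020, with a dashed line at the median of all coding genes with a region in the R5020 list. PR at CARS1 (55.7) and Maf1 at GARS1 (27.5) are the highest points of their panels.

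HARS1 and HARS2, the cytosolic and mitochondrial histidyl enzymes, are transcribed away from each other, and 84 bases separate their starts. With R5020, a single PR region of fold 5.01 at chr5:140691040-140691925 and a single Maf1 region of fold 3.28 at chr5:140691195-140691508 lay over both starts, so both members share these counts. No PR region was at either gene with vehicle. The bases between the genes, 5′ to 3′ on the minus strand of HARS1, held none of the 4 patterns.
HARS1, chr5:140691371-140691454: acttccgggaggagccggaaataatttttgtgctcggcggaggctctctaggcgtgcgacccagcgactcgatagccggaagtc

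Maf1 was found at an end of 6 of 35 members with vehicle (17.1%, 8.10 to 32.7), against 9.36% of all protein-coding genes, and of 22 of 35 with R5020 (62.9%, 46.3 to 76.8), against 35.7%. The same 6 members had it in both lists (9.15% of all genes did), 16 with R5020 alone (26.6% of all) and 0 with vehicle alone (0.215% of all). With R5020 the members were 14 of 19 cytosolic and 8 of 16 mitochondrial, a difference of 23.7 points whose interval includes 0 (lower bound -7.77). Within 5 kb of an end the difference was 39.5 points (9.15 to 62.7). The excess over all genes was 27.1 points (10.6 to 41.1), and 12.1 points (-4.72 to 25.9) among acetylated genes, of which 52.6% had Maf1. With R5020, 13 of the 32 Maf1 regions at member ends were also within 1 kb of the start of another coding gene. Among the 3049 regions of highest q in each list, 3 members had Maf1 with R5020 (AARS1, CARS1 and GARS1) and 6 with vehicle. The shares of all genes were then 3.41% with R5020 and 9.36% with vehicle.

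GARS1 had the highest Maf1 fold of the members in both lists. It was 19.7 with vehicle at chr7:30594528-30595146, at percentile 99.4 of the list with a -log10 q of 160.0, and 27.5 with R5020 at chr7:30594434-30595119, at percentile 99.7 with a -log10 q of 224.0. Both regions cover the starts of the gene and the response element in its line above. PR at the same place had modest ranks, with folds of 4.06 at percentile 51.9 with vehicle and 9.34 at percentile 69.8 with R5020. Over the same bases lay H3K27Ac with folds of 22.0 and 20.8, and POLR3G with 2.84 and 3.72. No POLR3A, Brf1 or POLR3C region lay within 1 kb of GARS1.

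AARS1 followed, with Maf1 folds of 10.3 at chr16:70251313-70252174 with vehicle and 16.8 at chr16:70251060-70252312 with R5020. These lie at its far end, where EXOSC6 starts, and the start of AARS1 itself had a region with R5020 alone, of fold 5.53. CARS1 had 14.8 with R5020 at chr11:3000457-3000915, inside the PR region of fold 55.7, and none with vehicle. IARS2 had 6.91 and 7.03 over its start, and VARS2 4.44 and 8.14 at its end of lower coordinate. MARS1 had 4.04 and 3.85, the first of them beside DDIT3, and HARS1 3.52 and 3.67 at its far end, beside the start of DND1. Apart from GARS1, AARS1 and IARS2, no vehicle Maf1 fold of a member reached 5.

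The 16 members with Maf1 in the R5020 list alone had highest folds below 6 except CARS1. Among cytosolic enzymes these were YARS1 with 5.53, TARS1 with 4.96, NARS1 with 4.54, EPRS1 with 4.46 and WARS1 (tryptophanyl) with 4.09. RARS1 (arginyl) had 4.01, KARS1 (lysyl) 3.37, SARS1 (seryl) 3.35 and VARS1 3.11. Among mitochondrial enzymes these were YARS2 with 4.86, CARS2 with 4.67, LARS2 (leucyl) with 4.34, TARS2 (threonyl) with 4.01, HARS2 with 3.28 and AARS2 with 2.76. The median over the 22 members was 4.40, against 4.34 over all coding genes with a Maf1 region. A start had Maf1 in 18 of 30 members with R5020 (interval 42.3% to 75.4%; 36.5% of all genes) and in 3 with vehicle (GARS1, IARS2 and MARS1; 8.71% of all genes).

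**Figure D3:**
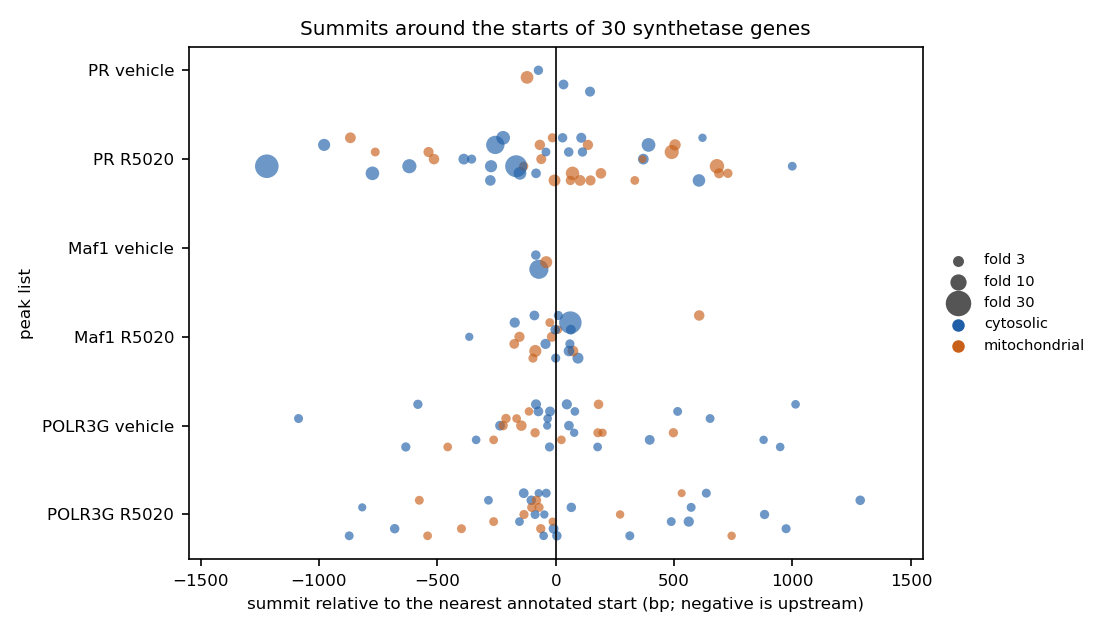
Summit positions of regions around the annotated starts of 30 members in bases (horizontal axis, negative is upstream) for 6 peak lists, with the size of a point showing the fold and its colour the enzyme class. Maf1 summits gather near 0 and include the largest Maf1 points, at GARS1, whereas PR summits with R5020 spread on both sides out to the IARS1 point at -1220.

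PR and Maf1 regions often lay on the same bases. With R5020, 26 of 32 Maf1 regions at member ends overlapped a PR region by at least 1 base (81.2%, 64.7 to 91.1), against 81.8% at all coding gene ends. In the other direction, 26 of 55 PR regions overlapped Maf1 (47.3%, 34.7 to 60.2), against 37.2%. H3K27Ac overlapped 51 of the 55 PR regions (92.7%, 82.7 to 97.1), against 78.2%, and POLR3G 38 of them (69.1%, 56.0 to 79.7), against 44.1%. Whatever the PR, more members than other genes had these at an end with R5020: H3K27Ac 97.1% against 69.3%, POLR3G 82.9% against 41.5%. The overlaps were not set against those at acetylated genes, so they do not show a closer link with PR. With vehicle, 9 PR regions lay at member ends, and all 9 overlapped H3K27Ac and POLR3G, where 98.4% and 89.5% of PR regions at all coding gene ends did. Maf1 overlapped 4 of the 9, against 35.3%.

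H3K27Ac lay at an end of the same 34 members in both treatments (66.2% of all genes had it in both), and 69.3% of all genes had it with R5020. Highest folds ran from 7.24 at PARS2 (mitochondrial prolyl) to 22.0 at GARS1 with vehicle, and from 6.33 at MARS2 (mitochondrial methionyl) to 30.8 at AARS1 with R5020. The medians over members were 14.8 and 15.8, against 12.2 and 13.3 over all coding genes with a region. FARS2, the mitochondrial phenylalanyl enzyme, had none at an end, but its annotated start lies 11073 bases inside the RefSeq span. At that start FARS2 had H3K27Ac of fold 21.7 with vehicle (chr6:5259510-5262573) and 27.9 with R5020, and with R5020 also PR of fold 4.30 and Maf1 of fold 4.54. The region also overlaps the neighbouring LYRM4. CARS2 likewise starts 7007 bases inside its span, and there it had H3K27Ac of fold 15.2 and 17.7, and with R5020 PR of fold 4.67 and Maf1 of fold 5.13.

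POLR3G, a subunit that can take the place of POLR3GL, lay at an end of most synthetase genes and, at the authors' threshold, of a larger share of cytosolic than of mitochondrial ones. With vehicle, 30 of 35 members had a region at an end (85.7%; 47.8% of all genes), an excess of 38.0 points (22.8 to 46.0), and with R5020 29 of 35 (82.9%; 41.5% of all genes), an excess of 41.4 points (25.8 to 50.4). Among acetylated genes, 69.4% had POLR3G with vehicle and 60.6% with R5020, and the excess of members was 18.8 points (3.91 to 25.9) and 24.7 points (9.24 to 33.0). All 19 cytosolic members had POLR3G with vehicle and 18 with R5020, whereas 11 of 16 mitochondrial members had it in each list, differences of 31.2 points (7.28 to 55.6) and 26.0 points (0.154 to 50.7). With a -log10 q of at least 5 the vehicle difference was 13.2 points, and its interval included 0 (-18.0 to 41.4). The folds were low, with medians over members of 3.60 and 3.50, against 3.41 and 3.36 over all coding genes with a region. MARS1 had the highest, 6.53 and 6.19, in broad regions that also cover DDIT3 and MBD6. Of the POLR3G regions at member ends, 16 of 58 with vehicle and 22 of 61 with R5020 were also within 1 kb of another coding start. Those regions cannot be assigned to 1 gene. With a -log10 q of at least 5, 20 members remained with vehicle and 14 with R5020, where 29.1% and 20.9% of all genes had a region.

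In 27 members POLR3G was in both lists (38.3% of all genes). FARSB (fold 2.80), NARS2 (3.25) and WARS2 (the mitochondrial tryptophanyl enzyme, 3.73) had it with vehicle alone (9.50% of all genes), and LARS2 (3.50) and YARS2 (2.61) with R5020 alone (3.22% of all genes). MARS2, RARS2 (mitochondrial arginyl) and FARS2 had none at an end, but FARS2 had POLR3G in both lists at its annotated start inside the span. Counted at annotated starts, POLR3G was at 16 of 16 cytosolic and 10 of 14 mitochondrial members with vehicle (48.3% of all genes). With R5020 it was at 15 of 16 and 10 of 14 (41.5% of all genes). No interval was computed for these differences. Since 1 of the 3 R5020 libraries of POLR3G carries an ethanol tag, the split by treatment rests on the titles.

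**Figure D4:**
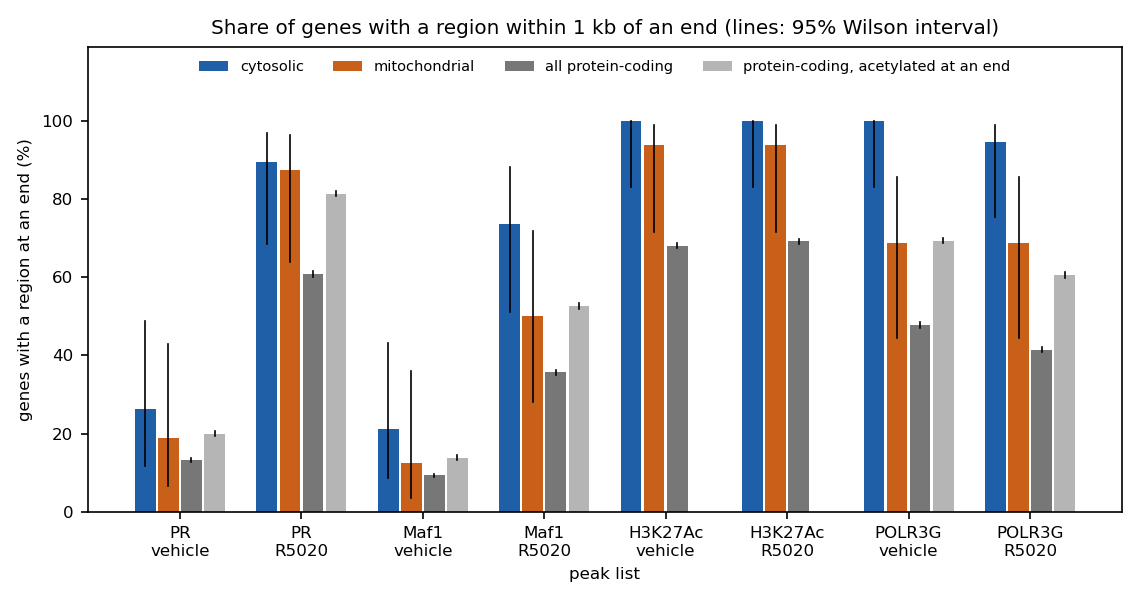
Share of genes in percent with a region within 1 kb of an end (bars from 0, with 95% Wilson intervals as lines) for cytosolic members, mitochondrial members, all protein-coding genes and protein-coding genes acetylated at an end in both treatments. The cytosolic and mitochondrial bars are level for PR with R5020 (89.5% and 87.5%) and apart for POLR3G (19 of 19 and 11 of 16 with vehicle).

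The lists of the other polymerase III proteins held no region at an end of a synthetase gene, and they were far shorter. With vehicle and R5020, POLR3G had 58424 and 46875 regions. POLR3A had 688 and 1047, Brf1 370 and 1173, POLR3C 673 and 699, and POLR3GL 1104 and 603. POLR3A had a region at an end of 0 of 35 members in either list (0.509% of all protein-coding genes with vehicle and 0.539% with R5020), and Brf1 likewise 0 (0.359% and 1.03%). POLR3C, whose protein binds POLR3G or POLR3GL in the polymerase, had 0 in both lists (1.68% and 1.75%), and POLR3GL 0 in both (0.339% and 0.270%). A count of 0 of 35 allows a share of up to 9.89% (upper Wilson bound), so the members cannot be told from all genes here. No POLR3A, Brf1, POLR3C or POLR3GL region overlapped any of the 55 PR or 32 Maf1 regions at member ends with R5020. That adds little to the counts above, since no such region lay at a member end. Over all coding gene ends these overlaps ran from 0.124% (POLR3GL) to 1.33% (POLR3C) of PR regions and from 0.320% to 2.42% of Maf1 regions. The nearest POLR3A region to any member was at VTRNA1-1, a vault RNA gene made by polymerase III. It lay 11745 bases from HARS2 with vehicle (chr5:140711050-140711657, fold 48.0) and 11802 bases away with R5020 (fold 65.9). Brf1 was there too, with folds of 20.5 and 57.3. A Brf1 region of the R5020 list lay nearer to a member, 8251 bases from TARS2 (fold 5.08).

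Of the 7 members in the multi-synthetase complex, 0 had PR at an end with vehicle and 6 with R5020, QARS1 being the one without. Maf1 was at 1 of the 7 (MARS1) and then at 4 (EPRS1, KARS1, MARS1 and RARS1), and H3K27Ac and POLR3G were at all 7 in both treatments, where 68.0% and 69.3% of all coding genes had H3K27Ac and 47.8% and 41.5% had POLR3G. With vehicle and R5020, the shares of all coding genes were 13.3% and 60.9% for PR and 9.36% and 35.7% for Maf1. Each of the 3 scaffold genes had PR in both lists, where 13.1% of all coding genes did. EEF1E1 had PR folds of 15.0 and 13.8, AIMP1 3.67 and 6.54, and AIMP2 3.07 and 5.24.

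The elongation factors take charged tRNAs onward. Of 6 cytosolic elongation genes, 3 had PR with vehicle and 6 with R5020, and of 4 mitochondrial ones 1 and 4. Maf1 was at 0 and 4 of the cytosolic and at 1 and 4 of the mitochondrial genes. Of 11 genes for tRNA processing and export, PR was at 3 and 10 and Maf1 at 3 and 5. Of 14 genes of the amino acid response and supply, PR was at 7 and 11 and Maf1 at 6 and 10. ATF4 itself had PR folds of 4.02 and 15.5 and Maf1 folds of 4.06 and 6.91. All these shares stand against 13.3% and 60.9% of all coding genes for PR, and 9.36% and 35.7% for Maf1.

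Inside the gene bodies, over 1 kb from both ends, PR was at 1 of 35 members with vehicle (CARS2, fold 4.22; 6.88% of all coding genes) and at 25 of 35 with R5020 (71.4%, 54.9 to 83.7; 63.1% of all). The median gene length was 32831 bases over members and 24115 over all coding genes, and longer genes can hold more regions. FARS2 held 36 PR regions, the most of any member, and CARS1 12. The highest folds inside were 29.9 and 29.0 in GARS1 (chr7:30615992-30616731 and chr7:30617185-30617761), 28.4 in MARS1 (chr12:57512530-57513229), 27.5 in FARS2 (chr6:5457888-5458726), 26.5 in LARS2 (chr3:45538580-45539112) and 26.0 in CARS1 (chr11:3010860-3011283). At GARS1 the strongest PR was thus in the gene body, while its strongest Maf1 was at the start. Maf1 regions of fold 4.65 and 4.55 lay within the 2 strong PR regions of the GARS1 body. In all, Maf1 was inside 5 of 35 members with R5020 (14.3%; 21.0% of all) and 0 with vehicle (3.05% of all). H3K27Ac was inside 17 members with vehicle and 20 with R5020, against 44.0% and 47.2% of all coding genes.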

How the data were processed

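T47D ChIP-seq peak lists of 8 antibodies and 2 treatments were used, 1 list per group of 3 libraries. The submitters' processing notes name cutadapt, Bowtie2, MACS2 and the build hg38. Their settings, the control libraries and the way replicates were combined are not given in the sources used here. The deposited value of a region is its fold enrichment, a ratio made by the authors, and beside it stands the authors' -log10 q-value, whose lowest value was 1.30. Both served to describe or filter regions within 1 list.

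Lines with other sequence names than chromosomes 1 to 22, X or Y were left out, 1872 of 520465. Gene spans, promoter windows and sequences came from RefSeq GRCh38.p14. LARS1, YARS1, VARS1, VARS2 and AARS2 are not among the promoter windows used, and for them which end is the start was not read. A gene was counted when a region lay within 1 kb of either end. Members with Maf1, with vehicle PR, with the 5 highest R5020 PR folds at an end or inside, or with H3K27Ac or POLR3G in 1 treatment or none were named, as were HARS1 and HARS2. Others were named after their values were seen, to account for every member. The members and lists were chosen with earlier results of these data known. The alternatives were distances of 0 and 5 kb, starts only, stricter q and fold, equal numbers of top regions, a 50% overlap and acetylated genes as background. Overlap counts were checked on simulated data. Python 3.11.15, numpy 2.4.6, pandas 2.3.3, scipy 1.17.1 and matplotlib 3.10.9 were used.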

Additional observations from a re-analysis of the deposited data

How the results depend on the processing

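Of 137 recomputed values, 122 stayed within 1.5 times the reported count or, for a difference of shares, inside its 95% interval, and 15 did not. The 122 include every count of POLR3A, Brf1, POLR3C and POLR3GL, which were 0 at each setting and had little room to move. The bounds are wide: with a -log10 q of at least 5, vehicle POLR3G at 20 members (from 30; 29.1% of all genes) counts as unchanged. So does the vehicle POLR3G difference of 13.2 points, whose interval included 0. The cytosolic minus mitochondrial difference moved inside its interval: for PR with R5020 from 1.97 points to -10.5 within 5 kb and 14.5 with a -log10 q of at least 5, for Maf1 with R5020 from 23.7 to 39.5 within 5 kb, and for vehicle POLR3G from 31.2 to 13.2 with a -log10 q of at least 5. With equal numbers of top regions, members with PR with R5020 fell from 31 to 1, those with PR in both treatments from 7 to 0, Maf1 with R5020 from 22 to 3 and Maf1 in both from 6 to 2. The R5020 shares of all genes fell too, from 60.9% to 4.19% for PR and from 35.7% to 3.41% for Maf1. The excess over all genes then became -1.33 points for PR (from 27.7) and 5.16 for Maf1 (from 27.1). With starts only, over 30 members, vehicle counts were 4 for PR and 3 for Maf1 (13.6% and 8.71% of all genes). With the region covering the end itself, vehicle Maf1 was at 2 members (4.65% of all genes). Within 5 kb, 11 members had PR in both treatments, and 17.0% of all genes had PR there with vehicle. With a -log10 q of at least 5, POLR3G was at 14 members with R5020 (20.9% of all genes) and at 10 in both treatments. The vehicle H3K27Ac excess was then 33.0 points. Shares of all genes in both treatments were not computed for any alternative setting. Among acetylated genes the excess was 9.73 points for PR with R5020 and 18.8 for POLR3G with vehicle. The causes were not tested. No paired analysis was possible because the lists carry no replicates, and no replicate could be left out. With a fold of at least 3, POLR3G was at 23 members with vehicle (from 30; 34.8% of all genes) and 27 with R5020 (from 29; 29.4%). PR with R5020 was then at 30 members (58.0% of all genes) and Maf1 with R5020 at 21 (32.9%). A 50% overlap left both counts it was tried on as they were. Depth is unknown, so absence from a list is absence at the authors' threshold.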
